A study of Homo sapiens with 6 samples.

Results

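The 10 genes described here encode the TGF-beta receptors TGFBR1 and TGFBR2, the signal transducers SMAD2, SMAD3 and SMAD4, the inhibitory SMADs SMAD6 and SMAD7, the co-repressors SKI and SKIL, and the decoy receptor BAMBI. They were taken by name from 19970 protein-coding genes on chromosomes 1 to 22 and X of RefSeq GRCh38, and every accessible region inside them or within 20 kb was examined, 29 of 28879 regions in all. Chromatin accessibility was measured with ATAC-seq, an assay that tags open DNA with a transposase, in Huh7, an established human hepatocellular carcinoma line. All 3 groups lacked endogenous ARID1A, a subunit of the SWI/SNF chromatin remodelling complex, and stably expressed a Flag-tagged ARID1A from a lentivirus. The V2084D shSTUB1 group carried ARID1A with the C-terminal missense change V2084D and a knockdown of STUB1, a chaperone-associated ubiquitin ligase. The V2084D group carried the same missense form without that knockdown, and the WT group carried wild-type ARID1A. Each group had 2 libraries. The labels name no control hairpin for the V2084D and WT groups and no cells without a transgene, and do not say whether the lines were clones or the replicates separate cultures.

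TGF-beta binds TGFBR2, which phosphorylates TGFBR1, and TGFBR1 then phosphorylates SMAD2 and SMAD3. The phosphorylated SMADs join SMAD4, enter the nucleus and bind DNA together with other factors. SMAD6, SMAD7, SKI, SKIL and BAMBI restrain the pathway, and several of them are themselves induced by it, which forms negative feedback. In hepatocytes the pathway is known for limiting proliferation, and in liver cancer also for loss of epithelial traits.

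Peaks were called by the authors in each library separately, so each library gave 1 list. The V2084D shSTUB1 lists held 21728 and 15326 summits, the V2084D lists 9231 and 30768, and the WT lists 10441 and 7401. Sequencing depth relative to the shallowest library, recovered from the deposited fold and p-value of the summits, was 1.49 and 1.23 in V2084D shSTUB1, 1.17 and 1.70 in V2084D, and 1.01 and 1 in WT. V2084D replicate 2 was thus the deepest library with the longest list. The median summit held 8 to 12 reads depending on the library, so where a list has no peak, accessibility below the calling limit is still possible. Of 10 hepatocyte marker genes only the apolipoprotein gene APOA1 had a peak within 1000 bp of a gene end, in 3 libraries, and the other 9, ALB and AFP among them, had none in any list. Of the other marker genes, the collagen gene COL1A1 had such a peak in all 6 libraries, the endothelial receptor gene KDR in 5 and the leukocyte factor gene SPI1 in 3. No list held one at 4 of 5 fibroblast and stellate, 3 of 4 endothelial and 4 of 5 leukocyte markers. Of all protein-coding genes, 41.8% had none in any list. At the engineered genes, ARID1A had a gene-end peak in 1 library and STUB1 in none, so these lists check neither the knockout nor the knockdown.

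Peaks within 1000 bp of a gene end, called gene-end peaks below, were found at 8 of the 10 genes in at least 1 library, and SMAD3 and SKI had none. SMAD6 had one in all 6 libraries, as did 15.8% of all protein-coding genes. TGFBR1, TGFBR2 and SMAD2 had one in 4 libraries, SMAD4 and SKIL in 3, and SMAD7 and BAMBI in V2084D replicate 2 alone. Of all protein-coding genes, 8.84% had one in exactly 4 libraries, 7.87% in 3, 7.3% in 2 and 7.3% in 1. The number of these genes with a gene-end peak was 5 and 3 in the V2084D shSTUB1 libraries, 4 and 8 in V2084D, and 4 and 2 in WT. The same share over all protein-coding genes was 48.1% and 40.6% in V2084D shSTUB1, 31.1% and 54.7% in V2084D, and 32.3% and 24.2% in WT. The count was lowest in WT replicate 2 and highest in V2084D replicate 2, the libraries with the fewest and the most such genes in the whole genome. V2084D shSTUB1 replicate 2 had 3 of the 10 genes, against 4 each in V2084D replicate 1 and WT replicate 1, which were shallower and had shorter lists. Over all genes its share was the higher, 40.6% against 31.1% and 32.3%. The part of depth in the presence or absence of single peaks was not tested.

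**Figure D1:**
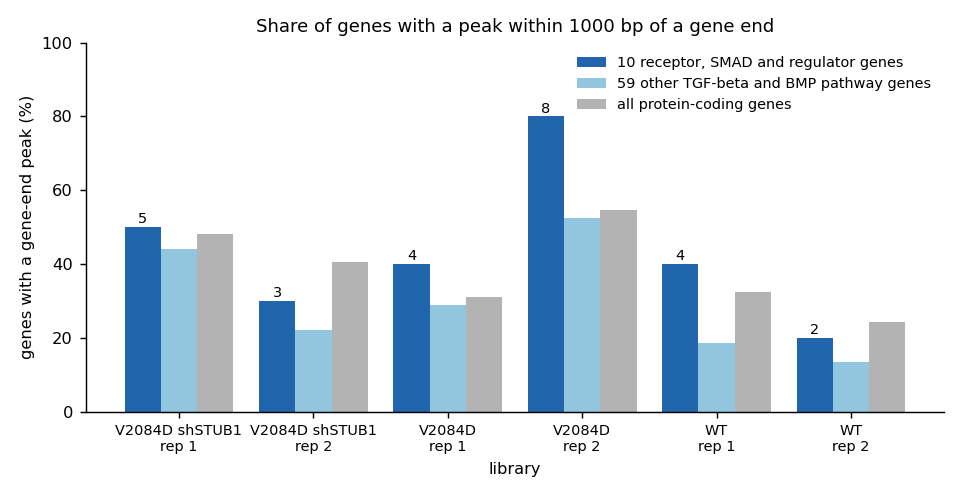
Percentage of genes (vertical axis) with a peak within 1000 bp of a gene end in each library (horizontal axis), for the 10 receptor, SMAD and regulator genes (dark bars, with the number of genes above), 59 other TGF-beta and BMP pathway genes and all 19970 protein-coding genes. V2084D replicate 2 had peaks at 8 of the 10 genes and WT replicate 2 at 2.

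The 29 regions comprised 10 at the ends of these genes and 19 elsewhere, and of all 23423 regions at protein-coding genes 51.6% lay at a gene end. That share counts an end of any protein-coding gene. Among the 19, the SKI region at 2212647 to 2212997 lay at an end of another gene, FAAP20. Of the 10, 1 was found in all 6 libraries, 3 in 4 libraries, 2 in 3 libraries and 4 in 1 library. Of the other 19, 13 were found in 1 library, 3 in 2 libraries and 1 each in 3, 4 and 5 libraries. Of the 23423 regions at protein-coding genes, 40.7% were in 1 library, whichever it was, and 12.9% in all 6. Among the 29, V2084D replicate 2 alone accounted for 11 regions, and V2084D shSTUB1 replicates 1 and 2 for 3 each. The share of the 23423 regions found in V2084D replicate 2 alone was not counted. Neither WT library nor V2084D replicate 1 held a region that no other library had. Gene-end summits had a median of 10 reads (4 to 24) and a median fold over local background of 5.22 (3.72 to 6.0), and summits elsewhere had a median of 7.5 reads (3 to 17) and a median fold of 4.84 (3.11 to 7.69). These folds and the −log10 q values are the authors' own, and each summit is ranked below only within its own list.

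**Figure D2:**
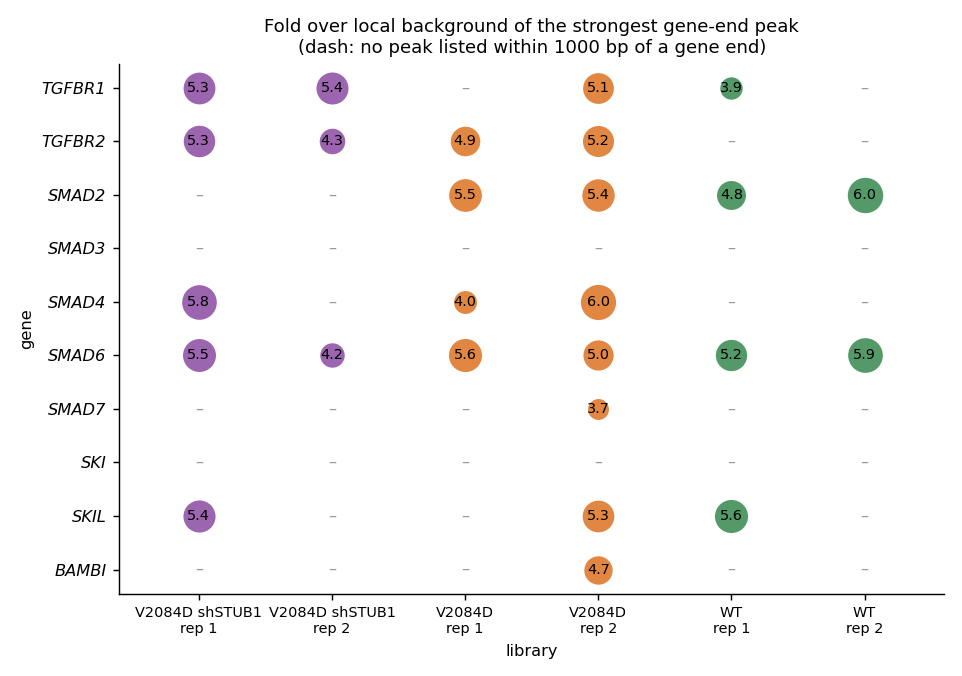
Fold over local background at the gene-end summit with the highest −log10 q, by gene (rows) and library (columns), where circle area grows with the fold and a dash marks no listed peak. SMAD6 is filled in all 6 libraries, SMAD2 in the V2084D and WT libraries, TGFBR2 in the V2084D shSTUB1 and V2084D libraries, and SMAD3 and SKI in none.

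The receptor genes each had 1 region, at the gene start. TGFBR2, the type II receptor gene that binds the ligand (chromosome 3, 30606356 to 30694142, plus strand), had a summit of 9 and 6 reads in V2084D shSTUB1 replicates 1 and 2, 7 and 10 reads in V2084D replicates 1 and 2, and no listed peak in either WT library. The 4 libraries with a peak and the 2 without thus divide the V2084D-carrying groups from WT. The folds were 5.26 and 4.32 in V2084D shSTUB1 and 4.94 and 5.19 in V2084D, and by −log10 q the summits stood at percentiles 40.6 and 11.5 of the V2084D shSTUB1 lists and 30.0 and 40.3 of the V2084D lists. All 4 summits lay 82 to 452 bp downstream of the upstream RefSeq start, but the peaks of V2084D shSTUB1 replicate 2 and V2084D replicate 1 did not overlap and lay 289 bp apart. In the WT lists, summits with a local background like that at TGFBR2 (0.620 and 1.12 reads) were called from 5 and 7 reads upward. Divided by relative depth, the TGFBR2 summits had 6.04 and 4.87 reads in V2084D shSTUB1 and 6.01 and 5.90 in V2084D. The backgrounds used for the limits were not divided by depth, so these reads and limits are on different scales. Whether depth accounts for the missing WT peaks was not tested. The region also overlaps the protein-coding gene LOC105377015, which has a start within 1000 bp of it, so the peak cannot be assigned to TGFBR2 alone. The presence pattern of TGFBR2 was shared by 612 protein-coding genes (3.06%), among them the SMAD anchor gene ZFYVE9.

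TGFBR1, the type I receptor kinase gene (chromosome 9, 99103647 to 99154192, plus strand), had 9 and 8 reads at the summit in V2084D shSTUB1, no listed peak in V2084D replicate 1 and 10 reads in replicate 2, and 5 reads in WT replicate 1 and no listed peak in replicate 2. Each of these groups had at least 1 library with a peak, so none stood apart. The folds were 5.32 and 5.36 in V2084D shSTUB1, 5.14 in V2084D replicate 2 and 3.90 in WT replicate 1. By −log10 q the summits stood at percentiles 41.6 and 40.5 of the V2084D shSTUB1 lists and 39.2 of the V2084D replicate 2 list. The only WT peak stood at percentile 5.24 of its list, near the calling limit. The summits lay 1044 to 1311 bp from the gene's outermost start and within 130 bp of the nearest of its 8 RefSeq starts. TGFBR1 thus counted among the genes with a gene-end peak because the region (99104393 to 99105102) reached into the 1000 bp window.

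SMAD2, a receptor-activated SMAD gene (chromosome 18, 47808957 to 47930872, minus strand), had the rarest pattern of the 10 when counted over all genes. The region just upstream of its start (47930911 to 47931700) had no listed peak in either V2084D shSTUB1 library, 8 and 13 reads at the strongest summit in V2084D replicates 1 and 2, and 8 reads in each WT library. Both groups without the hairpin therefore had the peak and the hairpin group did not. The folds were 5.49 and 5.43 in V2084D and 4.84 and 6.0 in WT, at percentiles 49.0 and 54.6 of the V2084D lists and 26 and 59.1 of the WT lists. Both V2084D shSTUB1 libraries were deeper than V2084D replicate 1 and both WT libraries. In them, summits with a local background like that at SMAD2 (0.50 and 1.58 reads) were called from 4 and 7 reads upward in replicate 1 and from 5 and 8 in replicate 2. Of 19970 protein-coding genes, 7 (0.0351%) showed this presence over the 6 libraries, SMAD2 included, and none of the other 59 pathway genes did.

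Deep inside SMAD2, V2084D shSTUB1 had peaks of its own. A peak of 5 reads (47894348 to 47894549, fold 4.84) in V2084D shSTUB1 replicate 1 and a peak of 3 reads (47894148 to 47894347, fold 3.33) in replicate 2 had their summits 36389 and 36667 bp downstream of the gene start, next to each other but without a shared base, and no other list had a peak there. The peak of replicate 2 stood at percentile 2.38 of its list, near the calling limit. The SMAD2 summits upstream of the start also differed in place. The strongest summits of the V2084D libraries lay 365 and 368 bp upstream, and those of the WT libraries 738 and 601 bp upstream. V2084D replicate 2 had a second, weaker summit 716 bp upstream, near the WT summits, and a further peak of 12 reads 564 bp inside the gene.

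**Figure D3:**
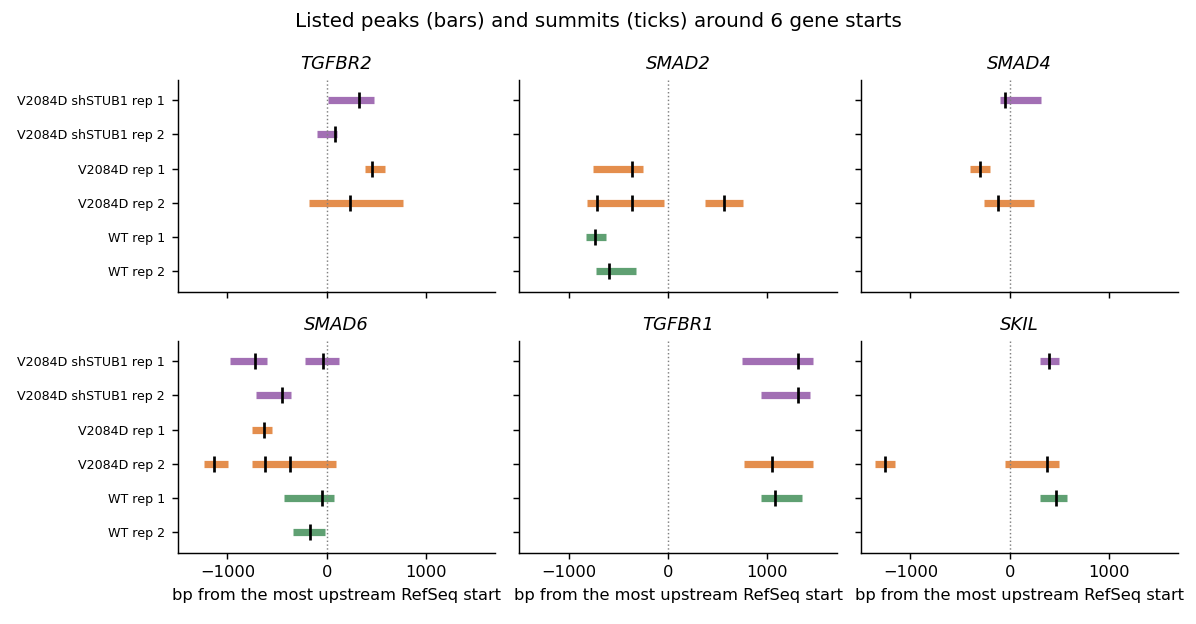
Listed peaks (bars) and their summits (ticks) in the 6 libraries (rows) around the starts of 6 genes, with the distance in bp from the most upstream RefSeq start on the horizontal axis and the gene running to the right. SMAD2 has no peak in the V2084D shSTUB1 rows, TGFBR2 and SMAD4 have none in the WT rows, and the SMAD6 summits of WT lie 51 and 165 bp upstream of the start.

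SMAD3, the other receptor-activated SMAD gene (chromosome 15, 67065602 to 67195169, plus strand), had no gene-end peak in any library, as did 41.8% of all protein-coding genes, and 6 regions further away. The most recurrent lay inside the gene (67106998 to 67107380), with summits 41498 to 41756 bp from its start, with 9 and 10 reads in V2084D shSTUB1, 6 and 9 reads in V2084D, and 5 reads in WT replicate 1 and no listed peak in WT replicate 2. It was present in 5 libraries, the most of any region away from the gene ends, and each group had it at least once. The folds were 4.95 and 7.14 in V2084D shSTUB1, 4.61 and 5.43 in V2084D and 4.35 in WT replicate 1.

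Upstream of SMAD3 a region (67063908 to 67064493) had 12 and 17 reads in V2084D shSTUB1, no listed peak in V2084D replicate 1 and 9 reads in replicate 2, and no listed peak in WT. It was thus found in both knockdown libraries, in 1 V2084D library and in neither WT library. The folds were 5.12 and 7.69 in V2084D shSTUB1, where the peak of replicate 2 stood at percentile 92.7 of its list, and 3.11 in V2084D replicate 2. Its summits lay 1262 to 1566 bp upstream of SMAD3. The region overlaps the divergent non-coding gene SMAD3-DT, which has a start within 1000 bp of it. At a local background of 1.34 and 2.22 reads, WT summits were called from 7 and 9 reads upward in replicate 1 and from 7 and 10 in replicate 2. Divided by relative depth, the strongest summits of this region had 8.05 and 13.8 reads in V2084D shSTUB1 and 5.31 in V2084D replicate 2. The backgrounds used for the limits were not divided. Another region inside SMAD3 (67150437 to 67150868) had 8 reads in V2084D shSTUB1 replicate 2 and 13 reads in V2084D replicate 2. The remaining 3 regions were each found in 1 library, and that of V2084D replicate 2 at 67125591 to 67125896 had its summit 41 bp from a downstream RefSeq start of SMAD3.

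SMAD4, the gene of the shared partner of all receptor-activated SMADs (chromosome 18, 51030213 to 51085042, plus strand), had 1 region, at its start (51029818 to 51030533). It had 8 reads in V2084D shSTUB1 replicate 1 and no listed peak in replicate 2, 4 and 9 reads in V2084D, and no listed peak in either WT library. Both V2084D libraries therefore differed from both WT libraries, and the knockdown libraries were divided. The folds were 5.84 in V2084D shSTUB1 replicate 1, and 3.97 and 5.95 in V2084D. The summits lay 47 bp upstream of the start in V2084D shSTUB1 replicate 1 and 300 and 122 bp upstream in V2084D replicates 1 and 2, and the peaks of V2084D shSTUB1 replicate 1 and V2084D replicate 1 did not overlap (94 bp apart). The peak of V2084D replicate 1, with 4 reads, stood at percentile 9.06 of its list. In both WT lists, at local backgrounds of 0.260 and 0.680 reads, summits were called from 4 and 5 reads upward. Divided by relative depth, the SMAD4 summits had 5.37 reads in V2084D shSTUB1 replicate 1 and 3.43 and 5.31 in V2084D. The backgrounds used for the limits were not divided, so these reads and limits are on different scales. Whether depth accounts for the missing WT peaks was not tested. The region also overlaps the non-coding gene LOC107985152, which has a start within 1000 bp of it.

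SMAD6, an inhibitory SMAD gene known for blocking BMP and TGF-beta signals (chromosome 15, 66702236 to 66782849, plus strand), was the member with a gene-end peak in every library. The strongest summit of its start region (66701267 to 66702360) had 20 and 12 reads in V2084D shSTUB1, 12 and 24 in V2084D, and 13 and 12 in WT. Divided by relative depth these were 13.4 and 9.74 in V2084D shSTUB1, 10.3 and 14.2 in V2084D, and 12.8 and 12.0 in WT, so the groups overlapped. The folds were 5.53 and 4.17 in V2084D shSTUB1, 5.56 and 5.04 in V2084D, and 5.22 and 5.86 in WT.

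The place of the SMAD6 summits varied between libraries. In V2084D shSTUB1 replicate 1 there were separate peaks with summits 720 and 40 bp upstream of the start, and in replicate 2 a peak 452 bp upstream. In V2084D replicate 1 the summit lay 626 bp upstream, and in replicate 2 summits lay 620 and 372 bp upstream, with another peak 1138 bp upstream. In WT the summits lay 51 and 165 bp upstream. The peak of V2084D replicate 1 overlapped neither WT peak, with gaps of 116 and 214 bp. The peak of V2084D replicate 2 covered both places. Within SMAD6, V2084D shSTUB1 replicates 1 and 2 each had a further peak of 6 and 5 reads that no other library had.

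SMAD7, the other inhibitory SMAD gene and a classic feedback target of the pathway (chromosome 18, 48919853 to 48950965, minus strand), had a gene-end peak in V2084D replicate 2 alone, with 10 reads, a fold of 3.72 and a summit 949 bp upstream of the start. The same library had peaks 1758 and 9332 bp upstream. Downstream of the gene, peaks of 4 reads in V2084D shSTUB1 replicate 2, 4 reads in V2084D replicate 2 and 3 reads in WT replicate 1 had their summits 48463 to 48851 bp from its start, beyond its far end and inside the non-coding gene LOC124904355. These 3 stood at percentiles 6.25, 0.294 and 1.47 of their lists, close to the calling limit.

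The sequences upstream of TGFBR2, SMAD4 and SMAD6 are shown because peaks covered them, that of SMAD2 because its region sets V2084D shSTUB1 apart from the other groups, and that of SMAD7 as a feedback target with a peak in 1 library. Each gives the 250 bases before the most upstream RefSeq start (GRCh38.p14), 5′ to 3′ on the gene's strand, with capitals for exact matches on either strand to the SMAD box CAGAC, the AP-1 site TGANTCA, the GC box GGGCGG and the palindromic SMAD site GTCTAGAC.
TGFBR2 (chr3:30606106-30606355, plus strand): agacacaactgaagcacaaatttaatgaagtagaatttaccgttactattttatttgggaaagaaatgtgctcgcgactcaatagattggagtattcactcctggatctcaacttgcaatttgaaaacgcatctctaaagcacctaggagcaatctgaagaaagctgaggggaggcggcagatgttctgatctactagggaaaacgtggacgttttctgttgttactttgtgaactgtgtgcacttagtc
SMAD2 (chr18:47930873-47931122, minus strand): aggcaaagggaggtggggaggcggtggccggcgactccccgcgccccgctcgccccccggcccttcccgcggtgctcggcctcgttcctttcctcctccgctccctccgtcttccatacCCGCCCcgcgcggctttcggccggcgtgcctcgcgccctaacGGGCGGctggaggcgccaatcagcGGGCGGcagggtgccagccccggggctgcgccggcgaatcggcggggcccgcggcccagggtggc
SMAD4 (chr18:51029963-51030212, plus strand): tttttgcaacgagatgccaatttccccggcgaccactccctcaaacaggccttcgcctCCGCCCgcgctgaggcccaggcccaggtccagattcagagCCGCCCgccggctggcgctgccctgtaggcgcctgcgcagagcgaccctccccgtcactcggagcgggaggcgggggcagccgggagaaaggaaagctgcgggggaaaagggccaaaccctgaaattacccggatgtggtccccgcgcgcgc
SMAD6 (chr15:66701986-66702235, plus strand): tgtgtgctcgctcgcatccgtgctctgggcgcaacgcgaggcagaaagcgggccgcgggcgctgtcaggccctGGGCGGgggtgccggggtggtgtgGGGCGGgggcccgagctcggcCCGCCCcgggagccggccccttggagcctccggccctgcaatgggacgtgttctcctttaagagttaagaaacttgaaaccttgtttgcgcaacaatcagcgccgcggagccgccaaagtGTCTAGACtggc
SMAD7 (chr18:48950966-48951215, minus strand): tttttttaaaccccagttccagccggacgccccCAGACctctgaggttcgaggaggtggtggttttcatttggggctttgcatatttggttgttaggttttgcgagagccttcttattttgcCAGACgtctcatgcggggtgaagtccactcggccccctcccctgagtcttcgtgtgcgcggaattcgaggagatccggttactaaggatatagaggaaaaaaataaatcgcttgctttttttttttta

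At TGFBR2 peaks covered none of the 250 bases in V2084D shSTUB1 replicate 1 and 99 in replicate 2, none in V2084D replicate 1 and 177 in replicate 2, and none in WT. Peaks covered 101 of the 250 bases at SMAD4 in V2084D shSTUB1 replicate 1, 55 and 250 in V2084D and none in WT. At SMAD6 they covered 213 bases in V2084D shSTUB1 replicate 1 and none in replicate 2, none in V2084D replicate 1 and 250 in replicate 2, and 250 and 237 in WT. At SMAD2 V2084D replicate 2 covered 212 bases and the other peaks lay further upstream, and at SMAD7 no peak reached the window. The SMAD2 window held 3 GC boxes, that of SMAD4 2 and that of SMAD6 3, and those of TGFBR2 and SMAD7 none, whereas 55.8% of 15811 protein-coding promoters held at least 1. SMAD7 held 2 SMAD boxes and TGFBR2, SMAD2, SMAD4 and SMAD6 none, against 36.9% of all promoters with at least 1. Of the windows not shown, that of BAMBI held 2 SMAD boxes, that of SKIL 1, and those of TGFBR1 and SMAD3 none. Peaks of V2084D replicate 2 covered 194 bases of the BAMBI window and 52 of the SKIL window. SMAD6 held the palindrome GTCTAGAC beginning 12 bases before its start, as did 0.215% of promoters. This motif was added after the sequence was seen. No AP-1 site was found in these 5, and 5.0% of promoters held one. GC content was 40.8% in TGFBR2, 78.4% in SMAD2, 68.4% in SMAD4, 68.0% in SMAD6 and 48.0% in SMAD7, where the median promoter had 62.0%. A match to these letters is a description of the sequence and does not show binding.

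SKI and SKIL encode co-repressors that bind SMAD complexes and recruit deacetylase complexes. SKIL (chromosome 3, 170357715 to 170396849, plus strand) had 9 reads in V2084D shSTUB1 replicate 1, 13 reads in V2084D replicate 2 and 8 reads in WT replicate 1 at its start region (170357663 to 170358289), and no listed peak in the other library of each group. The folds were 5.38, 5.30 and 5.56, and the summits lay 372 to 466 bp downstream of the start. Each group was thus divided in the same way, and the pattern was shared by 277 protein-coding genes. V2084D replicate 2 had a further peak of 13 reads 1259 bp upstream. SKI (chromosome 1, 2228319 to 2310213) had no gene-end peak. Inside the gene a region (2231894 to 2232175) had 12 reads in V2084D replicate 2 and 7 reads in WT replicate 2, with folds of 4.85 and 5.13, 3753 and 3685 bp from the end of lower coordinate. The other 2 SKI regions were found in V2084D replicate 2 alone, and the one at 2212647 to 2212997 also lies at an end of FAAP20.

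BAMBI, the gene of a receptor-like protein without a kinase domain (chromosome 10, 28677521 to 28682932, plus strand), had a peak at its start in V2084D replicate 2 alone, with 12 reads, a fold of 4.74 and a summit 189 bp upstream. A region with summits 8615 to 8849 bp upstream (28668547 to 28669002) was found more often. It had 6 reads in V2084D shSTUB1 replicate 1 and no listed peak in replicate 2, no listed peak in V2084D replicate 1 and 6 reads in replicate 2, and 6 and 5 reads in WT. It was the only region of these genes outside SMAD2 and SMAD6 with a peak in both WT libraries. The folds were 5.0 in V2084D shSTUB1 replicate 1, 3.98 in V2084D replicate 2, and 5.15 and 5.08 in WT. At the gene start the WT libraries had no listed peak.

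**Figure D4:**
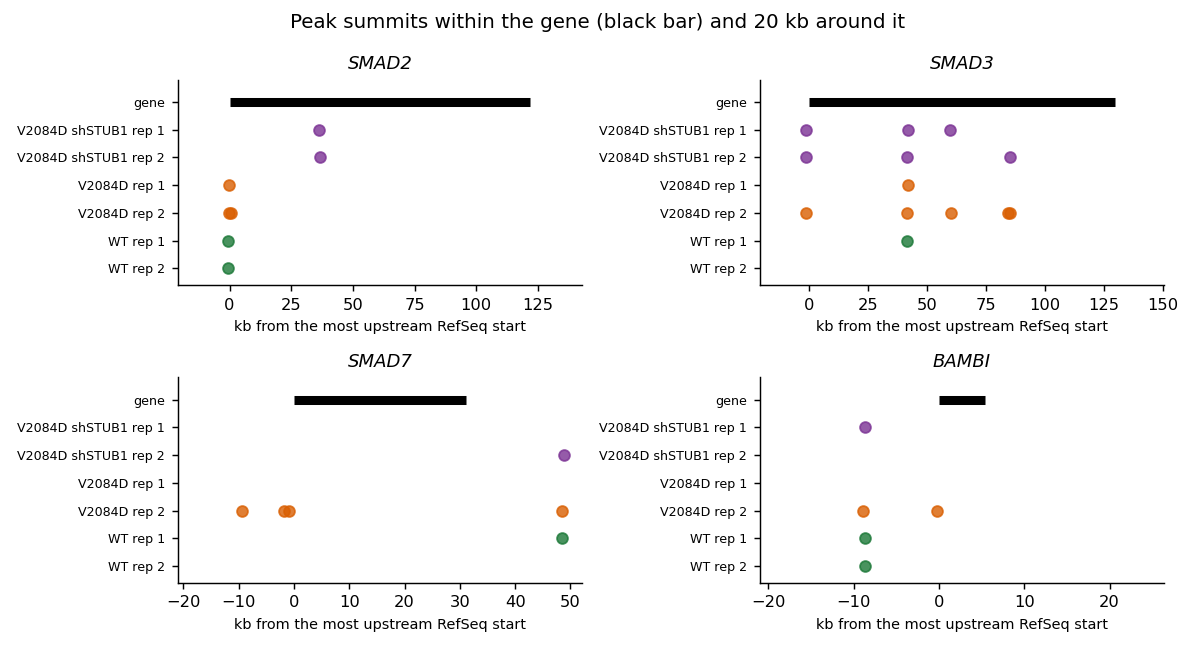
Peak summits (points) in each library (rows) along SMAD2, SMAD3, SMAD7 and BAMBI, in kb from the most upstream RefSeq start, with the gene as a black bar at the top and 20 kb on either side. The V2084D shSTUB1 points of SMAD2 lie inside the gene and those of the other groups at its start, and the column of points inside SMAD3, 41498 to 41756 bp from its start, holds 5 libraries.

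The comparison of V2084D with WT addresses the exchange of wild-type ARID1A for the missense form. TGFBR2 and SMAD4, 2 of the 10 genes, carried a gene-end peak in each V2084D library and in no WT library, against 5.07% of all protein-coding genes and 9.06% of those with a gene-end peak in at least 1 of the 4 libraries. The reverse was found at none of the 10, at 0.0501% of all genes and at 0.0895% of those with a peak. By regions the counts were 2 (5.91% of the 23423 regions at protein-coding genes) and 0 (0.167%), in the same order. Both were 0 when a library's peaks had to cover at least 50% of the merged region. The gene counts stayed at 2 and 0 when at least 50% of a peak had to lie within the gene-end window. Without V2084D replicate 1 the first count was 4, with SMAD7 and BAMBI added, and without V2084D replicate 2 it remained TGFBR2 and SMAD4. With lists of equal length, or a −log10 q of at least 5, it was 0. At equal length, 2 regions were found in both WT libraries and neither V2084D library, the one upstream of BAMBI and the stretch of the SMAD6 start region nearest to the start. Without V2084D replicate 1 the count of regions in V2084D and not WT was 15, where 11 of the 23 regions of V2084D replicate 2 were in no other library. With 2 libraries a group, the smallest two-sided p of an exact permutation test is 0.333, and the comparisons are therefore given as counts without a test.

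The comparison of V2084D shSTUB1 with V2084D addresses the knockdown of STUB1 when the missense form is present. None of the 10 genes carried a gene-end peak in each V2084D shSTUB1 library and in no V2084D library, a pattern of 0.366% of all genes and 0.632% of those with a peak. The reverse was found at 1 gene, SMAD2, and at 0.656% of all genes and 1.13% of those with a peak. By regions the counts were 0 (1.25% of the 23423 regions) and 1 (1.23%). The first was 3 when V2084D shSTUB1 replicate 1 or 2 was left out and 2 without V2084D replicate 2, and the second was 14 without V2084D replicate 1 and 2 without V2084D shSTUB1 replicate 1 or V2084D replicate 2. Without V2084D shSTUB1 replicate 1 SMAD4 joined SMAD2, and without V2084D replicate 1 SMAD7 and BAMBI did. Without V2084D replicate 2, TGFBR1 had a peak in both V2084D shSTUB1 libraries and not in the V2084D library left. When any peak within the gene or 20 kb counted, SMAD2 was present in all 6 libraries and the count was 0, and it was also 0 with lists of equal length or a −log10 q of at least 5.

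The comparison of V2084D shSTUB1 with WT sets the missense form with the knockdown against wild-type ARID1A. TGFBR2 alone carried a gene-end peak in each V2084D shSTUB1 library and in no WT library, 1 of 10 against 7.07% of all genes and 13.4% of those with a peak. SMAD2 showed the reverse, 1 of 10 against 0.135% of all genes and 0.257% of those with a peak. Both gene counts were 0 with lists of equal length or a −log10 q of at least 5, and the SMAD2 count was also 0 with a gene-end window of 500 bp or when any peak within the gene or 20 kb counted. By regions the counts were 2 (8.84% of the 23423 regions), the second being the one upstream of SMAD3, and 1 (0.222%). Both were 0 when a library's peaks had to cover at least 50% of the merged region. Leaving out either V2084D shSTUB1 library gave 6 regions in place of the 2, and leaving out WT replicate 1 gave 4. The reverse count was 2 without V2084D shSTUB1 replicate 1 or either WT library. SMAD3 joined TGFBR2 when the gene-end window was 2000 bp. Without V2084D shSTUB1 replicate 2 SMAD4 joined TGFBR2, and without WT replicate 1 TGFBR1 did. These comparisons share their libraries pairwise, so SMAD2 and TGFBR2 counting in 2 of them each is no independent repeat.

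**Figure D5:**
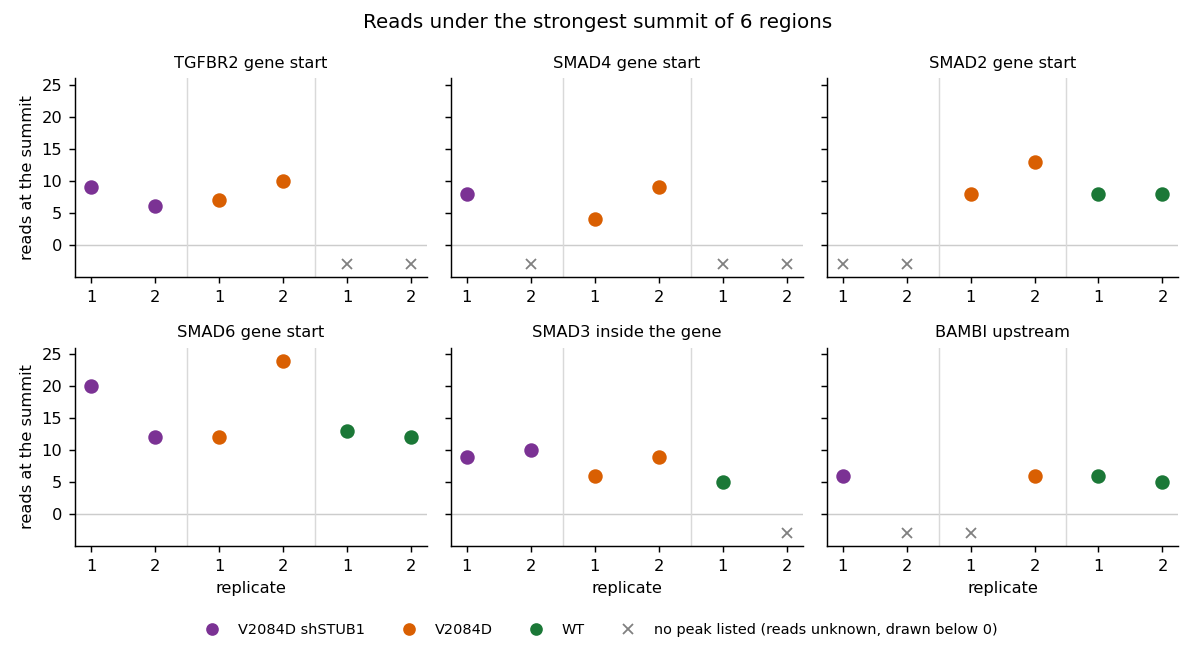
Reads at the strongest summit (vertical axis) of 6 regions in the 2 replicates of each group (horizontal axis), where a cross drawn below 0 marks a library with no listed peak, whose reads are unknown. SMAD6 had 12 to 24 reads in all 6 libraries, and the regions of TGFBR2, SMAD4 and SMAD2 lacked a peak in both libraries of at least 1 group.

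Of the 59 other genes of the TGF-beta and BMP pathway, 22 had no gene-end peak in any library, set against 41.8% of all genes, and 4 had one in all 6, set against 15.8%. Those 4 were the deubiquitinase gene USP15, the receptor-associated gene STRAP, the CDK inhibitor gene CDKN2B and SNAI2, a repressor of epithelial genes. The number with a gene-end peak was 26 and 13 in V2084D shSTUB1, set against 48.1% and 40.6% of all genes. It was 17 and 31 in V2084D, set against 31.1% and 54.7%, and 11 and 8 in WT, set against 32.3% and 24.2%. Both the number and the share over all genes were highest in V2084D replicate 2 and lowest in WT replicate 2. Peaks in each V2084D library and no WT library marked 6 of the 59, set against the 5.07% of all genes. Among them were the activin receptor gene ACVR2A (folds 4.49 and 6.54), ZFYVE9 (6.50 and 6.87), the BMP antagonist gene NOG (4.21 and 4.04), ID2, an inhibitor of basic helix-loop-helix factors (4.20 and 3.05), and the matricellular protein gene CCN2 (5.36 and 4.63). No gene showed the reverse.

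Among the same 59 genes, 3 (set against 7.07% of all genes) had a peak in both V2084D shSTUB1 libraries and neither WT library, among them the ligand gene TGFB2 (folds 4.08 and 4.64) and ZFYVE9 (4.93 and 4.74), and none had the reverse. ACVR2A, TRIM33, the gene of a SMAD4-binding ubiquitin ligase (folds 6.74 and 6.20), and ID2 had one in both V2084D and neither V2084D shSTUB1 library, set against 0.656% of all genes, and no gene had the reverse. At each of these genes the peaks of the replicates overlapped. By role, the ligand and latency genes counted 7 and 2 of 18 in V2084D shSTUB1, 0 and 8 in V2084D, and 0 and 2 in WT. The receptor genes counted 4 and 3 of 11 in V2084D shSTUB1, 5 and 7 in V2084D, and 4 and 0 in WT. Both roles counted most in V2084D replicate 2, the library with the largest share over all genes (54.7%). The receptor genes counted fewest in WT replicate 2, which had the smallest share (24.2%). The ligand and latency genes counted fewest in V2084D replicate 1 and WT replicate 1 (31.1% and 32.3% of all genes). The common target genes counted 8 and 3 of 10 in V2084D shSTUB1, 7 and 7 in V2084D, and 3 and 3 in WT. Their highest count was thus in V2084D shSTUB1 replicate 1. The negative regulators counted 5 and 3 of 15 in V2084D shSTUB1, 3 and 6 in V2084D, and 3 and 2 in WT. The other transducers counted 2 and 2 of 5, 2 and 3, and 1 and 1 in the same order. The part of list length in these counts was not tested.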

How the data were processed

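ATAC-seq peak lists of 6 libraries, 2 per group by their titles, were analysed. Build hg38 and the tools MACS2, Bowtie2, Trimmomatic, Picard, SAMtools, deepTools and bedtools are named, per the submitters' processing notes. Their versions, parameters and any Tn5 offset: not given in the sources used here. Files were deposited as narrowPeak lists, called per library. The deposited fold (a ratio over local background), −log10 p and −log10 q (at least 1.30 in every list) are the authors' values, and the deposited score is the whole part of 10 times −log10 q.

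Chromosomes 1 to 22 and X were kept. Peaks overlapping by 1 bp were merged into regions. Genes and starts came from RefSeq GRCh38.p14, strand from its promoter table, which was matched for 9 of the 10 genes. Exons were not used here. Reads and background at a summit were recovered from fold and −log10 p with a pseudocount of 1 (a whole read number matched −log10 p within 0.001 for 99.99% to 100% of the summits of a library, rounded). Depth is the lowest background of a library over that of the shallowest. Counts are of genes or regions, with no test. The counting was tested on simulated data. The members and lists were chosen with earlier results of these data known. All 10 genes are named, and of the other pathway genes those in both libraries of a group and neither of another, or in all 6, except 1 gene that is counted but not reported here by name. Python 3.11.15, pandas 2.3.3 and scipy 1.17.1 were used.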

Additional observations from a re-analysis of the deposited data

How the results depend on the processing

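No paired analysis was possible because the results are counts of listed peaks that come from no test. The titles number the replicates but tie no number to a shared culture, batch or day across groups. In the order V2084D over WT, WT over V2084D, V2084D shSTUB1 over V2084D, V2084D over V2084D shSTUB1, V2084D shSTUB1 over WT and WT over V2084D shSTUB1, genes with gene-end peaks in both libraries of the one and neither of the other group numbered 2, 0, 0, 1, 1 and 1. With a −log10 q of at least 5, and with lists of equal length (7234 summits), all 6 counts and the count of genes in all 6 libraries were 0. The regions numbered 8 with the stricter q and 9 at equal length against 29, with 0 present in all 6 libraries in both settings. With a gene-end window of 500 bp WT over V2084D shSTUB1 gave 0 and all 6 libraries 0, since the V2084D replicate 1 peak at SMAD6 lies outside it, and with 2000 bp V2084D shSTUB1 over WT gave 2. Counting any peak in the gene or within 20 kb gave 0 for V2084D over V2084D shSTUB1, 0 for WT over V2084D shSTUB1, and 2 for all 6 libraries (SMAD2 and SMAD6). When a library's peaks had to cover at least 50% of a merged region, no region was present in all 6 libraries (0). The region counts then fell to 0 for V2084D over WT (2), V2084D shSTUB1 over WT (2) and WT over V2084D shSTUB1 (1). The gene counts did not change when at least 50% of a peak had to lie within the gene-end window.

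Leaving out each library gave 2 to 4, 0 to 0, 0 to 1, 1 to 3, 1 to 2 and 1 to 1 for the 6 counts in the same order, 1 to 1 for genes in all remaining libraries, 19 to 29 for regions (19 without V2084D replicate 2) and 1 to 2 for regions in all remaining libraries. The gene count for WT over V2084D remained 0 in all 12 alternatives run, where only 0.0501% of all protein-coding genes had this pattern. The region count in that direction was 2 with lists of equal length and 1 without V2084D replicate 2. With medians of 8 to 12 reads at a summit, the depth does not allow a closed region to be told from one with too few reads, and the cause of each missing peak was not tested.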

Other observations

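SMAD2 shared its presence over the 6 libraries with 6 other protein-coding genes, which were looked up after the pattern was seen. They were the autophagy gene ATG16L1, the endoplasmic reticulum gene REEP4, TRIM66, the stress-response gene SESN3, the AKT phosphatase gene PHLPP1 and GOLGA6A, whose near-identical paralogs make the placement of its reads uncertain. None had a listed gene-end peak in a V2084D shSTUB1 library. Their gene-end summits in V2084D replicates 1 and 2 had 6 and 8 reads at ATG16L1, 15 and 14 at REEP4, 7 and 24 at TRIM66, 8 and 14 at SESN3, 5 and 12 at PHLPP1 and 6 and 6 at GOLGA6A. In WT replicates 1 and 2 they had 8 and 8 reads at ATG16L1, 8 and 6 at REEP4, 7 and 12 at TRIM66, 10 and 10 at SESN3, 9 and 8 at PHLPP1 and 10 and 9 at GOLGA6A.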
